A study of Mus musculus with 8 samples.

Results

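The regions described here are the 300 stitched clusters of H3K27ac peaks that carried the most peak-covered bases in freshly isolated muscle stem cells, away from the ends of protein-coding genes. Overlapping peaks of 4 deposited peak lists were merged into 72585 regions, and 15730 regions with a midpoint within 2 kb of either end of a protein-coding gene were dropped. The remaining 56855 regions were joined wherever the gap between neighbours was at most 12.5 kb, which gave 19986 clusters. The clusters were ranked by the bases under peaks, averaged over both FISC libraries, and ranks 1 to 300 were kept (1.50% of all clusters). They hold 6675 of the stitched regions (11.7%) and 14.7% of the summed cluster span, and 286 different protein-coding genes lie at or nearest to their midpoints. A cluster is called below by that gene, which gives its position and not a target.

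ASC are activated satellite cells, the muscle stem cells of C57BL/6 mice taken 2.5 days after injury of skeletal muscle with BaCl2, a salt that destroys myofibres and starts regeneration. FISC are freshly isolated satellite cells of C57BL/6 mice, from muscle that received no treatment. Each condition has 2 H3K27ac libraries made by ChIPmentation (chromatin immunoprecipitation with tagmentation of the bound DNA) and 2 inputs, and the inputs entered no test. The labels give neither age nor sex, and do not say whether replicates came from separate animals, so p-values measure only the spread between these libraries.

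H3K27ac, acetylation of lysine 27 on histone H3, marks active enhancers and promoters. Long runs of closely spaced marked enhancers, often called stretch enhancers or super-enhancers, tend to lie at genes that a cell type depends on, and transcription factors bind them densely. Satellite cells rest beneath the basal lamina of the myofibre under the control of Pax7, the Notch pathway and matrix contacts, and after injury they enter the cell cycle and start the myogenic programme.

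Several of the clusters hold microRNA hairpins, short RNAs that repress messenger RNAs through their seed, and the largest cluster of all is one of them. The mature sequences (RefSeq, GRCm38.p6) of hairpins in the clusters ranked 1, 3 and 9 are shown 5′ to 3′ with bases 2 to 8, the seed, in capitals, because let-7b and let-7c share one seed and miR-29a and miR-29b share another.
mmu-let-7b-5p: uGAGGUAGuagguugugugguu
mmu-let-7c-5p: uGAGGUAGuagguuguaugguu
mmu-miR-29a-3p: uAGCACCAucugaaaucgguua
mmu-miR-29b-3p: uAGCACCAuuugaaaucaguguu
mmu-miR-27b-3p: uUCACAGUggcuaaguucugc
mmu-miR-24-3p: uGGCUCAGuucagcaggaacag
The let-7 pair carries the seed GAGGUAG and the miR-29 pair the seed AGCACCA. In all, 27 of 1005 annotated hairpins lie in 21 of the 300 clusters, which is 19.7% of the 137 hairpins that lie in any cluster.

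Start sites inside the clusters differ in when they carry peaks. The promoters below (RefSeq, GRCm38.p6, 250 bases before to 50 after the annotated start) run 5′ to 3′ on the strand of the gene, with each match to the E-box letters CANNTG, the core site of basic helix-loop-helix factors such as MyoD, in capitals. The first, of Pax7, was covered over all 300 bases in every library. The next, an internal start of Septin9, was covered over 300 bases in both ASC libraries and over 0 in both FISC libraries, and the last, of Prelp, over 0 bases in both ASC libraries and over 300 in both FISC libraries.
Pax7, chr4:139832919-139833218, minus strand: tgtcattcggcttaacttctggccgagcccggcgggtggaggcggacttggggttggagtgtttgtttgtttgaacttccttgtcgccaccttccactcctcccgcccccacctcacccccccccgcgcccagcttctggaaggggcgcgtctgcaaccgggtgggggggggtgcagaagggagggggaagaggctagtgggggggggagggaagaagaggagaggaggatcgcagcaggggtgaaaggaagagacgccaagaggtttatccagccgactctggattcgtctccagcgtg
Septin9, chr11:117332063-117332362, plus strand: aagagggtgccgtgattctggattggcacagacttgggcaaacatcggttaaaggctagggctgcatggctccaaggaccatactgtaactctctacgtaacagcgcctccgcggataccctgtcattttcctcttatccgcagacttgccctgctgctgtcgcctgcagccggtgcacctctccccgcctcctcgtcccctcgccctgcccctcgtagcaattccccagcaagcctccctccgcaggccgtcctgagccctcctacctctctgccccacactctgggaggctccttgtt
Prelp, chr1:133921352-133921651, minus strand: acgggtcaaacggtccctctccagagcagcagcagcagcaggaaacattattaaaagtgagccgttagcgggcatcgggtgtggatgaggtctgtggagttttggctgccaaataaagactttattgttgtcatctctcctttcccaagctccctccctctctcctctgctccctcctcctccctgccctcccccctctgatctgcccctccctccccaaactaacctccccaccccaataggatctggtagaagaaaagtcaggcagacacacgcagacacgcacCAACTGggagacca
Of these, the Prelp promoter holds 1 E-box and the Pax7 and Septin9 promoters hold 0. The E-box was present in 61.0% of the 310 promoters listed for 208 of the 286 genes, against 69.0% of all 21263 promoters. The AP-1 letters TGANTCA were in 6.13% against 6.99%, and TGGGAA, the core of the site of RBPJ, the DNA-binding factor of the Notch pathway, in 22.9% against 24.5%. Both strands were searched, matches of different motifs were allowed to overlap at their ends, and a match is no more than a run of letters. Few starts in the clusters were covered in 1 condition alone. Of 107 annotated starts that lie in the 300 clusters away from gene ends, 78 were covered in all 4 libraries, 5 in both ASC and neither FISC library, and 3 in both FISC and neither ASC library (72.9, 4.67 and 2.80%). Of 1377 such starts in any cluster, the shares were 67.0, 6.17 and 2.98%, close to those of the 300.

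The peak lists held 50154 and 54700 peaks over 49.2 and 57.7 Mb in ASC, against 45014 and 43092 peaks over 34.4 and 33.7 Mb in FISC. The ASC lists are thus longer, so values divided by list length are given beside the main counts, and read depth is not given in the sources used here. Of 8 lists of 10 cell type markers each, the satellite list alone had genes among the clusters (Pax7, Chrdl2 and Megf10). In the satellite list every gene-start window was covered in at least 1 library, and the summed coverage was 22.0 and 22.2 kb in ASC, against 22.4 and 22.6 kb in FISC. Lymphoid markers were at 0 in all 10 windows and endothelial markers in 8 of 10, among them Pecam1 and Cdh5. A window at 0 does not mean a locus without peaks. The cluster nearest to Pecam1 had 3.49 and 3.88 kb in ASC, against 4.44 and 4.85 kb in FISC. That nearest to Cdh5 had 3.21 and 3.08 kb in ASC, against 2.29 and 2.12 kb in FISC. Smooth muscle and pericyte markers summed to 4.65 and 5.70 kb in ASC, against 8.52 and 7.48 kb in FISC, with 3 of 10 windows at 0 and 4 called lower in ASC. Fibro-adipogenic markers summed to 5.14 and 6.26 kb in ASC, against 4.57 and 4.77 kb in FISC (6 windows at 0), and myeloid markers to 2.15 and 4.34 kb in ASC, against 1.39 and 1.40 kb in FISC (6 at 0). Schwann markers summed to 6.30 and 6.87 kb in ASC, against 5.39 and 5.96 kb in FISC (4 at 0), and tendon markers to 6.01 and 6.52 kb in ASC, against 5.06 and 4.82 kb in FISC (7 at 0). Whether other cells had a part in the cluster values was not tested.

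Taken over all 300 clusters, the coverage that defines them in FISC was about as large in ASC, while the other clusters covered more in ASC. The 300 clusters held 4.68 and 5.79 Mb of peaks in ASC, against 4.89 and 4.96 Mb in FISC. The ASC libraries lie on either side of the FISC ones, with means of 5.23 ± 0.785 Mb in ASC and 4.93 ± 0.0522 Mb in FISC (SD, n = 2 each). All other clusters held 28.7 ± 3.81 Mb in ASC and 14.0 ± 0.251 Mb in FISC. Their ASC mean was 2.05 times the FISC mean, where that of the 300 was 1.06 times. Clusters ranked 301 to 600, chosen on the same measure, had a ratio of 1.22 (2.69 ± 0.380 Mb in ASC and 2.20 ± 0.0205 Mb in FISC). As a share of all cluster bases, the 300 made up 15.2 and 15.6% in ASC, against 25.6 and 26.4% in FISC. Since the clusters were chosen for high FISC values, these sums describe them and support nothing further. The order within the list changed too: 169 of the 300 were also among the 300 clusters with most covered bases in ASC, 131 were not, and 41 ranked below 1000 there.

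Single clusters went both ways, and the scatter of ASC against FISC coverage shows the spread. In the fit over all 15736 clusters covered in at least 2 libraries (limma on covered kb, Benjamini-Hochberg adjusted p under 0.05), 53 of the 300 were higher in ASC (17.7%), where 49.8% of all clusters tested were called higher. Another 67 were lower in ASC (22.3%), where 13.8% of all clusters tested were called lower, and 180 did not pass. With covered kb divided by each library's list length, the split was 29 higher and 200 lower (43.7 and 22.7% of all clusters), the median difference of all clusters was 0.265 kb in place of 0.516 kb, and that of the 300 was -6.05 kb in place of 0.528 kb. All 67 lower calls held under that division, as did 29 of the 53 higher calls, and 1 higher call turned round. In 121 clusters each ASC value exceeded each FISC value (63.4% of all tested), in 102 each lay below (20.7% of all tested), and in 77 the conditions overlapped. Because the ranking used FISC, nothing is read from these counts.

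**Figure D1:**
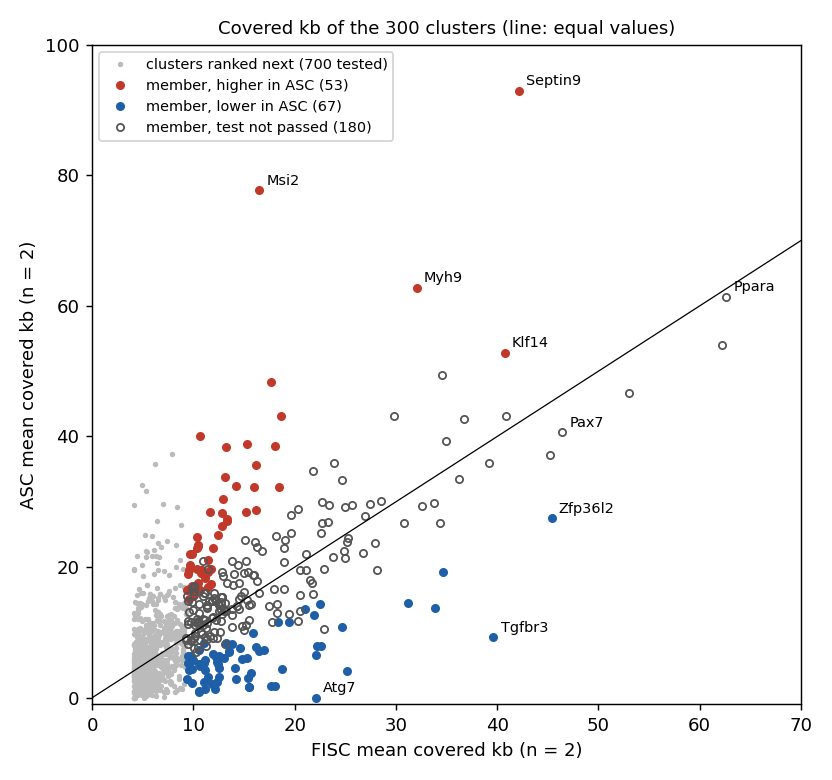
Mean covered kb in ASC (vertical) and FISC (horizontal) of the 300 clusters, coloured by call, with the 700 tested clusters that rank next in grey and a line of equal values. Septin9 and Msi2 stand far above the line, Tgfbr3 and the cluster near Atg7 far below it, and Ppara and Pax7 close to it.

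In each of a pair of comparisons, clusters were chosen on one FISC library and the other FISC library was compared with ASC. Chosen on FISC replicate 1, 300 clusters held 4.67 and 5.78 Mb in ASC, against 4.93 Mb in FISC replicate 2. There, 49 of 299 clusters tested were lower in ASC and 3 higher, where 5.12% of all clusters tested were called lower and 38.6% higher. Chosen on FISC replicate 2, the values were 4.65 and 5.76 Mb in ASC, against 4.86 Mb in FISC replicate 1, with 45 lower (5.09% of all tested) and 3 higher (37.1% of all tested). The lone FISC library is assumed in this fit to vary like the ASC ones. Both FISC libraries are of the same condition, so clusters chosen for high coverage in either tend to be high in the other. The choice thus favours lower calls over higher ones, and nothing is read from the difference to all clusters. Of the 300, 274 were chosen by each FISC library alone, 41 of these were lower in both held-out comparisons, and 3 (Septin9, Msi2 and Myh9) were higher in both. Each comparison tests with a library that did not choose, but that library did the choosing in the other comparison, so the counts of calls in both are a description with no test of their own. The share of all clusters called in both comparisons is not given, so these counts have no background beside them. Single clusters are named below as rising or falling by these comparisons, with the p of each. Both FISC libraries ranked these clusters, and some were named for their difference over 4 libraries. The p-values therefore describe the named clusters and are no separate test of them.

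The clusters at the top of the ranking lie at genes of very different kinds, and 14 of the first 20 passed in neither direction over 4 libraries. Rank 1 (chr15:85598678-85722383) lies between genes, 74.4 kb from Ppara, and carries the let-7c-2 and let-7b hairpins and the long noncoding RNA Lncppara. It had 56.9 and 66 kb in ASC, against 62.1 and 63.1 kb in FISC, and the conditions overlapped. Within 2 kb of the let-7b hairpin (chr15:85707319-85707403) the coverage was 0.69 and 1.33 kb in ASC, against 1.56 and 2.31 kb in FISC. Zbtb20, a zinc finger repressor, held the cluster ranked second with 48 and 60.1 kb in ASC, against 60.6 and 63.7 kb in FISC, and Aopep, an aminopeptidase whose introns carry miR-23b, miR-27b and miR-24-1, the one after it with 43.3 and 49.9 kb in ASC, against 52.6 and 53.5 kb in FISC. In both, the ASC libraries lie below the FISC ones by less than the fit could call. Divided by list length, each of these 3 clusters was lower in ASC, with -30.1 kb for Ppara (adjusted p = 0.00294, limma). Around the miR-27b hairpin (chr13:63300712-63300784) only ASC replicate 2 had a peak (0.277 kb within 2 kb), so the bulk of this cluster lies elsewhere in the gene.

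**Figure D2:**
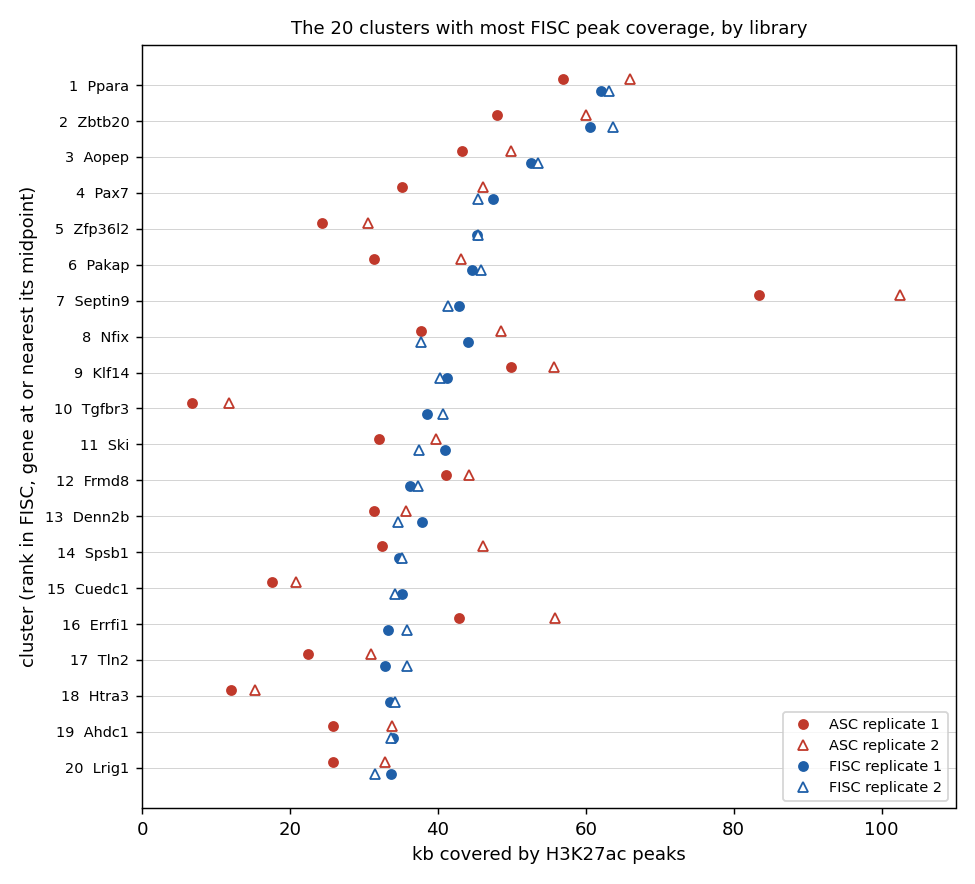
Covered kb in each library of the 20 highest-ranked clusters, with ASC in red above FISC in blue and the second replicate as an open triangle. Septin9 lies at 83.4 and 102.5 kb in ASC, Tgfbr3 at 6.71 and 11.8 kb, and Ppara between 56.9 and 66.0 kb in all 4 libraries.

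Pax7, the paired-box factor that satellite cells require, ranked 4 (chr4:139677336-139840033, 163 kb with 81 regions). Its cluster had 35.1 and 46.1 kb in ASC, against 47.4 and 45.5 kb in FISC. ASC replicate 2 lies inside the FISC range and ASC replicate 1 below it, so the conditions overlap, but divided by list length the Pax7 cluster was lower in ASC, with a difference of -26.6 kb (adjusted p = 0.00328, limma). Of its regions, 16 had peaks in both FISC and neither ASC library and 1 in both ASC and neither FISC library. Peaks in ASC were fewer: 43 and 45 peaks in ASC, against 77 and 84 in FISC. On the map of peaks, the blocks at both ends of the Pax7 cluster persist in ASC, and the small peaks in its middle are fewer.

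**Figure D3:**
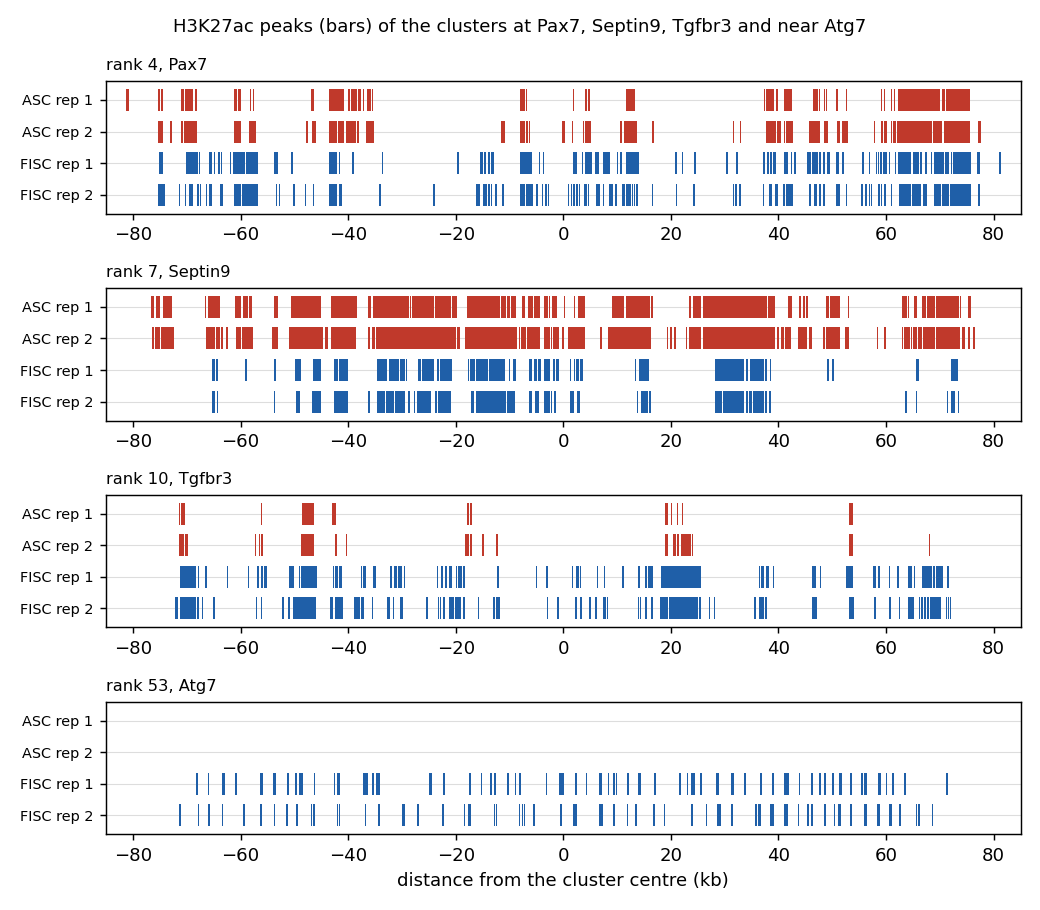
Peaks (bars) in the 4 libraries across the clusters at Pax7, Septin9, Tgfbr3 and near Atg7, as distance in kb from the centre of each cluster, with ASC above FISC. Pax7 keeps its main blocks, Septin9 is filled in ASC, Tgfbr3 keeps few peaks in ASC, and the cluster near Atg7 has none in ASC and many narrow peaks in FISC.

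Other satellite cell genes among the 300 were Fgfr1, Dag1, Chrdl2, Fgfr4 and Megf10. Thus 6 of the 21 genes of the satellite identity list have a cluster. In the fit over 4 libraries 1 was higher, 3 lower and 2 not passed (49.8% of all clusters tested were called higher and 13.8% lower, limma). After division by list length 0 were higher and 5 lower (43.7 and 22.7% of all clusters, limma). Chrdl2, a secreted BMP antagonist (chr7:100009852-100059993), had 2 and 2.72 kb in ASC, against 10.7 and 11.3 kb in FISC. Both ASC values lie far below both FISC values, and the cluster fell in both held-out comparisons (adjusted p = 0.00449 with FISC replicate 2 and 0.00435 with FISC replicate 1, limma). Megf10, a receptor that keeps satellite cells from differentiating, had 2.98 and 5.81 kb in ASC, against 9.34 and 10.3 kb in FISC and fell as well (adjusted p = 0.0172 with FISC replicate 2 and 0.0266 with FISC replicate 1, limma). The receptor Fgfr1 had 12.5 and 16.2 kb in ASC, against 22.6 and 22.4 kb in FISC, while Fgfr4, the other FGF receptor of myogenic cells, had 16.4 and 17.8 kb in ASC, against 10.2 and 9.59 kb in FISC. Fgfr1 lies lower and Fgfr4 higher in both ASC libraries, though neither passed with a single FISC library (adjusted p = 0.295 with FISC replicate 2 and 0.302 with FISC replicate 1 for Fgfr1, and adjusted p = 0.194 with FISC replicate 2 and 0.246 with FISC replicate 1 for Fgfr4, limma), and Fgfr4 lost its higher call when divided by list length (adjusted p = 0.187). Dag1, dystroglycan, the receptor for laminin, had 10.5 and 15.1 kb in ASC, against 20.2 and 18.7 kb in FISC.

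Few genes tied to quiescence and Notch signalling have a cluster among the 300, and most of their calls depend on list length. Of 29 quiescence genes, 5 have a cluster (Nfix, Col5a1, Dusp1, Foxo3 and Col5a3) and 0 of these passed in either direction in the fit over 4 libraries (limma, also 0 at an unadjusted p under 0.05), where 49.8% of all clusters tested were called higher and 13.8% lower. All 5 were lower after division by list length (22.7% of all clusters), with Nfix turning to -17.3 kb and Col5a3 to -4.02 kb (adjusted p = 0.0142 and 0.0238, limma). Nfix, a nuclear factor I protein that shapes fetal myogenesis, had 37.7 and 48.5 kb in ASC, against 44.1 and 37.7 kb in FISC, and the conditions overlap before that division. Col5a1, a chain of the collagen that satellite cells secrete into their niche, had 21.2 and 26.2 kb in ASC, against 27.8 and 28.1 kb in FISC, and Foxo3, a forkhead factor of quiescence, had 7.91 and 10.6 kb in ASC, against 12.2 and 10.1 kb in FISC. Of 18 Notch genes, 2 have a cluster: Notch2 had 27.4 and 30.3 kb in ASC, against 19.6 and 21.1 kb in FISC and Notch1 had 8.77 and 12.9 kb in ASC, against 14.2 and 13.5 kb in FISC, and neither passed, though Notch1 was lower after division by list length (adjusted p = 0.00513, limma). In covered kb the receptors differ in sign, with Notch2 above and Notch1 below FISC in both ASC libraries, while both lie below after that division (-2.47 kb for Notch2 and -8.97 kb for Notch1). Some well-known quiescence genes are not among the 300: the nearest clusters of Spry1 and Calcr ranked 742 and 1393, and both Myf5 and Hey1 had no cluster at or nearest to them. At Calcr, the calcitonin receptor that keeps satellite cells quiescent, that cluster had 0.21 and 0.742 kb in ASC, against 3.29 and 2.95 kb in FISC. Among other genes of these lists outside the 300, the nearest cluster of Foxo1 had 0.334 and 0.627 kb in ASC, against 4.83 and 4.93 kb in FISC, and that of the Notch ligand Jag1 had 1.23 and 1.68 kb in ASC, against 4.97 and 6.49 kb in FISC. At Calcr, Foxo1 and Jag1 both ASC values lie far below both FISC values. Other genes of the lists went the other way. The nearest cluster of Rbpj had 15.1 and 16 kb in ASC, against 5.33 and 6.74 kb in FISC. That of Cdkn1a had 6.99 and 8.05 kb in ASC, against 2.83 and 3.43 kb in FISC. Those of Hes1, Dll1, Lfng, Maml1, Adam10, Klf4, Lifr and Angpt1 were also called higher over 4 libraries (limma). Those of Spry1, Gas1, Tenm4, Hey2 and Numb were called lower.

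Among immediate early genes, Myc and Klf9 differ in direction. A pair of clusters lies downstream of Myc, a transcription factor of cell growth, across the noncoding RNA Pvt1. The first (chr15:62028019-62162689) had 39.3 and 57.5 kb in ASC, against 18.2 and 17.1 kb in FISC, and the other (chr15:62198173-62303526) had 19 and 27 kb in ASC, against 14.2 and 18.2 kb in FISC. In both, each ASC library lies above each FISC library, and the first was called higher over 4 libraries but not with a single FISC library (adjusted p = 0.14 with FISC replicate 2 and 0.153 with FISC replicate 1, limma). Klf9, a Krüppel-like factor, had 5.04 and 5.71 kb in ASC, against 9.72 and 9.28 kb in FISC, and Dusp1, the phosphatase that shuts off MAP kinases, had 13.2 and 15.5 kb in ASC, against 18.7 and 17.8 kb in FISC. Klf9 and Dusp1 lie below FISC in both ASC libraries. Klf9, chosen by FISC replicate 1 alone, was lower against FISC replicate 2 (adjusted p = 0.0407, limma), and Dusp1 passed neither held-out comparison (adjusted p = 0.6 with FISC replicate 2 and 0.533 with FISC replicate 1, limma).

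The 300 clusters were also grouped by what their gene does, into 12 groups put together after the values were seen, so the counts describe and carry no test. The groups do not hold every gene of their kind. All 4 nuclear factor I genes are among them, with 5 clusters. Nfia has a pair: one had 17.4 and 21.6 kb in ASC, against 20.9 and 20.1 kb in FISC, and its neighbour (chr4:97817246-97875681) had 2.44 and 3.99 kb in ASC, against 11.4 and 13.6 kb in FISC and fell in both held-out comparisons (adjusted p = 0.00449 with FISC replicate 2 and 0.00435 with FISC replicate 1, limma). Nfic had 17.4 and 20 kb in ASC, against 13.8 and 12.1 kb in FISC and Nfib had 21.1 and 22.9 kb in ASC, against 11.1 and 8.62 kb in FISC. The clusters of Nfia thus differ, one overlapping between the conditions and one far lower in ASC, and Nfib lies higher in both ASC libraries. Divided by list length, the overlapping Nfia cluster was lower too (adjusted p = 0.00479, limma).

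Transcription repressors with zinc finger or homeobox domains gave 13 clusters at 10 genes, of which 5 were lower, 2 higher and 6 not passed over 4 libraries (49.8% of all clusters tested were called higher and 13.8% lower). After division by list length, 2 were higher and 11 lower (43.7 and 22.7% of all clusters). Zbtb16, also known as PLZF (chr9:48694688-48824906), had 0.749 and 2.58 kb in ASC, against 16.7 and 14.4 kb in FISC and fell (adjusted p = 0.00449 with FISC replicate 2 and 0.00435 with FISC replicate 1, limma). Zhx2 had 2.51 and 4.96 kb in ASC, against 16 and 15.5 kb in FISC, and Zhx3 had a pair of clusters with 3.3 and 5.25 in ASC, against 9.9 and 12.5 kb in FISC, and 0.367 and 1.56 kb in ASC, against 9.04 and 12.1 kb in FISC. All ASC values of these 3 clusters lie below all FISC values of the same cluster. Bcl6 had 12.9 and 14.4 kb in ASC, against 13.6 and 14 kb in FISC, level before division by list length but lower after it (adjusted p = 0.00602, limma), and its one dense cluster spans only 15.5 kb. Zbtb7c had 30.2 and 37.4 kb in ASC, against 14 and 12.2 kb in FISC, the largest ratio in the group at 2.58. Of the remaining DNA-binding factors, Gli2, the transcription factor at the end of the Hedgehog pathway (chr1:119001471-119051205), had 1.18 and 1.34 kb in ASC, against 10.5 and 11.7 kb in FISC. It fell in both held-out comparisons (adjusted p = 0.00449 with FISC replicate 2 and 0.00435 with FISC replicate 1, limma), although the Gli2 promoter listed by RefSeq was covered over all 300 bases in each library. Runx1, a core-binding factor, has clusters with 23.3 and 30.1 in ASC, against 21.7 and 23.7 kb in FISC, and 15.5 and 17.8 kb in ASC, against 9.66 and 9.55 kb in FISC.

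TGF-β family signalling shows the largest loss among the 20 highest ranks. Tgfbr3, betaglycan, the co-receptor that presents TGF-β ligands (chr5:107142900-107287218, 144 kb), had 6.71 and 11.8 kb in ASC, against 38.5 and 40.7 kb in FISC. Both ASC libraries hold a small part of the FISC coverage, at 0.234 of the FISC mean, and the cluster fell in both held-out comparisons (adjusted p = 0.0186 with FISC replicate 2 and 0.0203 with FISC replicate 1, limma). It lost 26 regions that had peaks in both FISC and neither ASC library, gained 1, and its rank in ASC was 584. Ltbp1, which tethers latent TGF-β to the matrix, had 2.7 and 2.21 kb in ASC, against 11.1 and 13.5 kb in FISC, and Bmp6, a ligand, had 4.84 and 5.99 kb in ASC, against 13.2 and 11.4 kb in FISC. Both fell (adjusted p = 0.00449 with FISC replicate 2 and 0.00435 with FISC replicate 1 for Ltbp1, and adjusted p = 0.0171 with FISC replicate 2 and 0.0104 with FISC replicate 1 for Bmp6, limma). In covered kb, inhibitors and effectors of the pathway were not called: Ski had 32.1 and 39.7 kb in ASC, against 41 and 37.5 kb in FISC, Smad3 had 22.1 and 28.3 kb in ASC, against 22.2 and 22.9 kb in FISC, and Pmepa1 had 11.5 and 13.9 kb in ASC, against 12.1 and 15.5 kb in FISC. These 3 were lower as well after division by list length (adjusted p = 0.00382 for Ski, 0.0124 for Smad3 and 0.0346 for Pmepa1, limma). In covered kb, Smurf1 and Rgmb of this group lay higher in ASC, though neither was called. Against FISC replicate 2 they differed by 8.57 and 7.03 kb, and against FISC replicate 1 by 11.4 and 7.11 kb. Every ASC value topped every FISC value in 2 clusters of the group and fell short in 4 (63.4 and 20.7% of all clusters tested). The highest ratio in the group was 1.91. Of 9 clusters in this group, 3 were lower, 0 higher and 6 not passed over 4 libraries (limma, with 1 higher at an unadjusted p under 0.05), where 49.8% of all clusters tested were called higher and 13.8% lower. Divided by list length, 7 of the 9 were lower and 0 higher (22.7 and 43.7% of all clusters), with a median difference of -10.8 kb.

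Feedback inhibitors of receptor signalling hold 10 clusters at 8 genes, with 1 higher and 2 lower over 4 libraries (49.8 and 13.8% of all clusters tested). After division by list length 1 was higher and 8 lower (43.7 and 22.7% of all clusters). Errfi1, an inhibitor of the EGF receptor, had 42.9 and 55.9 kb in ASC, against 33.2 and 35.8 kb in FISC, and Spsb1, an adaptor of a ubiquitin ligase, had 32.5 and 46.1 kb in ASC, against 34.8 and 35.2 kb in FISC. The first lies above FISC in both ASC libraries and the second overlaps, and neither was called. Lrig1, which dampens growth factor receptors, had 25.8 and 32.8 kb in ASC, against 33.6 and 31.5 kb in FISC in its main cluster and 4.73 and 6.7 kb in ASC, against 11.1 and 11.2 kb in FISC in a neighbouring one, which fell (adjusted p = 0.0287 with FISC replicate 2 and 0.0299 with FISC replicate 1, limma). Socs3, the inhibitor of cytokine receptors, had 24.3 and 30.3 kb in ASC, against 13.4 and 13.3 kb in FISC, above FISC in both ASC libraries.

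Of 12 clusters at cytoskeleton and adhesion genes, 10 had both ASC libraries above both FISC libraries (63.4% of all clusters tested) and 2 had both below (20.7%), with 6 higher, 0 lower (limma, also 0 at an unadjusted p under 0.05) and 6 not passed over 4 libraries. As 49.8% of all clusters tested were called higher, 6 of 12 is close to the background. After division by list length 3 were higher and 4 lower (43.7 and 22.7% of all clusters). The group was put together after the values were seen and does not hold every such gene. Left out of it were Cnn3 and Jup, which lay lower in ASC. Their differences were -6.43 and -6.05 kb against FISC replicate 2, and -5.54 and -6.90 kb against FISC replicate 1. Septin9, a GTP-binding filament protein (chr11:117205086-117358213), had 83.4 and 102 kb in ASC, against 42.8 and 41.4 kb in FISC. Its ASC coverage was 2.21 times the FISC mean, the cluster ranked first of all clusters in ASC, and it rose in both held-out comparisons (adjusted p = 0.00449 with FISC replicate 2 and 0.00435 with FISC replicate 1, limma). It gained 14 regions with peaks in both ASC and neither FISC library and lost 0. The upstream start of Septin9 outside the cluster stayed narrow, with 0.284 and 0.482 kb in ASC, against 0.336 and 0.214 kb in FISC within 2 kb. Myh9, non-muscle myosin heavy chain, had 58 and 67.6 kb in ASC, against 32.8 and 31.3 kb in FISC and rose (adjusted p = 0.0227 with FISC replicate 2 and 0.0215 with FISC replicate 1, limma). Plec had 27.7 and 29.8 kb in ASC, against 16.1 and 16.3 kb in FISC, Dst had 17.3 and 20.7 kb in ASC, against 9.6 and 9.42 kb in FISC and Septin11 had 17.4 and 22.1 kb in ASC, against 10.7 and 9.94 kb in FISC. Tln2, a talin (22.4 and 31 kb in ASC, against 32.9 and 35.9 kb in FISC), and Dag1 lie below FISC instead.

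**Figure D4:**
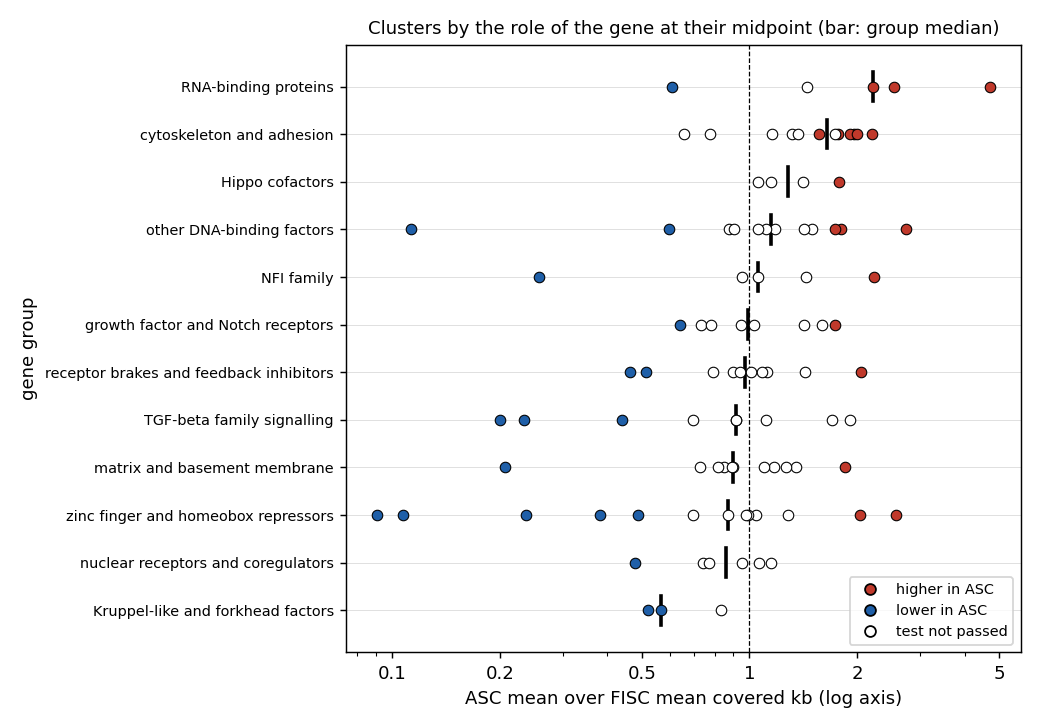
Ratio of mean covered kb, ASC over FISC, on a log axis for each cluster of the 12 gene groups, filled by its call over 4 libraries, with a bar at the median of the group. RNA-binding proteins and cytoskeleton genes have the highest medians, 2.21 and 1.65, and Krüppel-like and forkhead factors the lowest, 0.566 over 3 clusters. The groups were put together after the values were seen and do not hold every gene of their kind. Left out were Klf14, whose cluster was called higher over 4 libraries (12.1 kb), and the RNA-binding protein Qk.

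RNA-binding proteins hold the cluster with the largest difference of all. Msi2, Musashi-2, a translational regulator of stem and progenitor cells (chr11:88460188-88654395, 194 kb), had 70.5 and 85 kb in ASC, against 16.7 and 16.4 kb in FISC. The ASC values exceed the FISC values by 61.2 ± 5.69 kb (SE), and the cluster rose (adjusted p = 0.00449 with FISC replicate 2 and 0.00435 with FISC replicate 1, limma) to rank 2 in ASC. Mbnl1, a muscleblind splicing factor, had 35.7 and 42.2 kb in ASC, against 13.4 and 17.3 kb in FISC, and its relative Mbnl2 had 39.1 and 47.3 kb in ASC, against 29.3 and 30.3 kb in FISC. Rbms1 had 20.8 and 25.1 kb in ASC, against 9.43 and 11.3 kb in FISC. Zfp36l2, which speeds decay of AU-rich messenger RNAs, is the exception with 24.4 and 30.6 kb in ASC, against 45.3 and 45.4 kb in FISC, below FISC in both ASC libraries but not past the threshold with a single FISC library (adjusted p = 0.351 with FISC replicate 2 and 0.364 with FISC replicate 1, limma). The group median difference was 13.4 kb, and 5.42 kb after division by list length. Qk, an RNA-binding protein left out of the group, differed by 2.95 kb against FISC replicate 2 and 4.65 kb against FISC replicate 1.

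A further group holds 8 clusters, at growth factor and Notch receptors and at Irs1 and Irs2, which are receptor substrates. Of these 8, 1 was higher and 1 lower over 4 libraries (49.8 and 13.8% of all clusters tested). After division by list length 0 were higher and 5 lower (43.7 and 22.7% of all clusters). Egfr had 23.6 and 31.9 kb in ASC, against 25 and 28.9 kb in FISC, Igf2r had 14.7 and 17.2 kb in ASC, against 21.1 and 22.4 kb in FISC, Irs1 had 10.1 and 11.2 kb in ASC, against 11 and 11.5 kb in FISC and Irs2 had 21.6 and 26.7 kb in ASC, against 14.5 and 15.7 kb in FISC. Rxra, the shared partner of nuclear receptors, had 6.46 and 9.04 kb in ASC, against 16.2 and 16.1 kb in FISC and fell (adjusted p = 0.0351 with FISC replicate 2 and 0.0363 with FISC replicate 1, limma). The other nuclear receptors of the group overlapped or lay below: Rora had 9.66 and 12.2 kb in ASC, against 15.4 and 14.2 kb in FISC, Ppard had 9.02 and 9.3 kb in ASC, against 11.4 and 12.4 kb in FISC and Thra had 10.6 and 12 kb in ASC, against 11.1 and 10.2 kb in FISC. Of the 6 nuclear receptor and coregulator clusters, all 6 were lower after division by list length (22.7% of all clusters). In the Hippo pathway, which ends in TEAD factors and their cofactors, Tead1 had 16.9 and 21.3 kb in ASC, against 11.6 and 9.94 kb in FISC, Wwtr1 (TAZ) had 13.4 and 17.6 kb in ASC, against 10.9 and 11 kb in FISC and Vgll4 had 27.6 and 32.6 kb in ASC, against 28.7 and 28.3 kb in FISC. The first and second lie above FISC in both ASC libraries, and Vgll4 overlaps. After division by list length, 2 of the 4 Hippo clusters were lower and 0 higher (22.7 and 43.7% of all clusters). Of 11 matrix and basement membrane clusters 1 was higher (Timp2), 1 lower (Prelp) and 9 not passed over 4 libraries (49.8% of all clusters tested were called higher and 13.8% lower). Divided by list length, 8 were lower and 0 higher (22.7 and 43.7% of all clusters). Prelp, a leucine-rich matrix protein whose promoter is shown above, had 2.29 and 3.58 kb in ASC, against 14.8 and 13.6 kb in FISC and fell (adjusted p = 0.00449 with FISC replicate 2 and 0.00435 with FISC replicate 1, limma).

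The remaining large differences over 4 libraries were at genes of several kinds. Among higher clusters, Csf1, the macrophage growth factor, had 36 and 44 kb in ASC, against 9.72 and 11.6 kb in FISC, Sh3pxd2a, a podosome scaffold, had 32 and 44.7 kb in ASC, against 15.9 and 10.6 kb in FISC, and Stard13 had 40 and 46.4 kb in ASC, against 18.1 and 19.2 kb in FISC. Sipa1l3 had 34.8 and 42.3 kb in ASC, against 17.5 and 18.5 kb in FISC. In each of these the ASC libraries lie far above the FISC ones, and leaving the ranking library out left them short of the threshold, with the larger of the adjusted p-values at 0.143 for Csf1 and 0.253 for Sh3pxd2a (limma). Among lower clusters, Prkcq, protein kinase C theta, had 1.65 and 1.85 kb in ASC, against 17.4 and 18.7 kb in FISC, Prex1, a Rac exchange factor, had 0.929 and 2.73 kb in ASC, against 17.2 and 18.1 kb in FISC, Clmn, calmin, had 3.27 and 4.93 kb in ASC, against 26.9 and 23.5 kb in FISC, and Nedd4l, a ubiquitin ligase, had 5.29 and 7.7 kb in ASC, against 21.8 and 22.3 kb in FISC. All 4 fell in both held-out comparisons, with adjusted p = 0.00449 with FISC replicate 2 and 0.00435 with FISC replicate 1 for Prkcq (limma). Htra3, a secreted serine protease, had 12 and 15.3 kb in ASC, against 33.6 and 34.1 kb in FISC, Cuedc1 had 17.5 and 20.9 kb in ASC, against 35.1 and 34.2 kb in FISC and Hdac4, a class IIa histone deacetylase of muscle, had 13.4 and 15.5 kb in ASC, against 31.6 and 30.7 kb in FISC. These 3 also lie below FISC in both ASC libraries but did not pass the held-out comparisons, where the adjusted p for Htra3 reached 0.0925 (limma).

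Noncoding RNA genes lie in many of the clusters. The cluster near Klf14 (chr6:31061362-31193445), which spans much of Lncpint, had 49.9 and 55.7 kb in ASC, against 41.2 and 40.3 kb in FISC. It lies above FISC in both ASC libraries and was called higher over 4 libraries, but it turned to -9.01 kb, a lower call, once divided by list length. The miR-29a hairpin (chr6:31062660-31062747) sits at its edge, and within 2 kb of it the coverage was 1.91 and 2.11 kb in ASC, against 0 and 0 kb in FISC. Peaks there were thus present in ASC alone, beside hairpins whose shared seed is printed above. Frmd8 marks the cluster over Malat1 and Neat1, a pair of abundant nuclear RNAs, with 41.1 and 44.3 kb in ASC, against 36.2 and 37.3 kb in FISC. Within Neat1 itself the coverage was 9.9 and 11.1 kb in ASC, against 10.2 and 10.8 kb in FISC, close in all libraries. Nctc1, a transcript between H19 and Mrpl23, had 1.62 and 2.52 kb in ASC, against 9.49 and 9.2 kb in FISC within its gene body, and the cluster that holds it, called here by Mrpl23, had 1.62 and 2.52 kb in ASC, against 11.7 and 12 kb in FISC and fell (adjusted p = 0.00449 with FISC replicate 2 and 0.00435 with FISC replicate 1, limma). Around the miR-196a-2 hairpin in the Hoxc cluster the coverage was 3.42 and 3.43 kb in ASC, against 2.67 and 2.51 kb in FISC.

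The 300 clusters, chosen on FISC peaks, held fewer peaks in ASC, and these were wider, as peaks were in all clusters. They held 4106 and 4601 peaks in ASC, against 6026 and 5864 in FISC, a median of 12 and 12 peaks per cluster against 17 and 17. The median width was 549.5 and 556 bases in ASC, against 458 and 471 in FISC, where that of peaks in all clusters was 495 and 509 in ASC, against 406 and 420 in FISC. Peaks wider than 5 kb numbered 110 and 186 in ASC, against 55 and 63 in FISC, and the widest reached 17.3 and 24.2 kb in ASC, against 14.7 and 11.7 kb in FISC. Fewer peaks on average were called in ASC in 225 clusters (75.0%, where the share over all clusters tested was 29.95%), and 89 of these nevertheless had more covered kb. The strongest peak of a cluster, by the authors' fold enrichment, had a median fold of 22.8 and 22.0 in ASC, against 12.6 and 13.9 in FISC. It was higher in both ASC libraries in 245 of the 300 and lower in both in 21, and 67.7% of all clusters tested were higher in both. Fold enrichment depends on the depth and background of each library, and its part in these values was not tested. Region by region, 1690 of the 6675 regions (25.3%) had a peak in all 4 libraries, against 16.7% of the regions in all clusters. Peaks in both FISC and neither ASC library made up 12.5% (8.50% in all clusters), and peaks in both ASC and neither FISC library 7.48% (23.2% in all clusters). Of the 300, 118 had at least 1 region of each kind. The share over all clusters was not counted, and the 300 hold a median of 18.5 regions, where all clusters hold a median of 2. Regions with a peak in 1 library alone made up 42.1% (42.1% in all clusters).

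The starts of the genes at the clusters were tested as well. Regions at gene ends were dropped before the ranking, but windows at 89 of the genes share bases with the clusters. Those windows are not separate from the ranking. Of 286 genes, 260 had a window of 2 kb on either side of the start that was covered in at least 2 libraries. Of these, 43 were higher in ASC (16.5%), where 26.0% of all 12455 gene starts tested were called higher, 15 were lower (5.77%), where 3.30% of all were called lower, and 202 did not pass. After division by list length the split was 5 higher and 188 lower, where 7.91% of all gene starts tested were called higher and 39.5% lower. The median difference was 0.102 kb at these genes and 0.279 kb over all genes tested. With the bases shared with clusters left out, 32 windows were higher and 11 lower. The share over all gene starts is not given for that measure, so nothing is read from these counts. At genes of clusters called higher, 12 of 48 windows tested were higher and 0 lower (limma, with 1 lower at an unadjusted p under 0.05), and at genes of clusters called lower, 5 of 59 were higher and 11 lower. Across the 260 genes the cluster difference and the window difference had a Pearson r of 0.325 and a Spearman coefficient of 0.360, a description over genes that share the same 4 libraries.

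Runx1 had the largest rise at a start, with 4 and 4 kb in ASC, against 0.75 and 0.961 kb in FISC in the window (adjusted p = 0.00133, limma). All 4 kb of the window were under peaks in both ASC libraries. Sufu, an inhibitor of Hedgehog signalling, had 2.96 and 2.89 kb in ASC, against 1.55 and 1.49 kb in FISC, and Msi2 had 3.73 and 3.82 kb in ASC, against 2.57 and 2.48 kb in FISC; both rose (adjusted p = 0.00311 for Sufu and 0.00302 for Msi2, limma). After division by list length the Runx1 window was still higher (adjusted p = 0.00145), Sufu lost its call (adjusted p = 0.0885), and Msi2 lost its call and turned to -0.132 kb (adjusted p = 0.658, limma). S1pr3, a sphingosine-1-phosphate receptor, had 0.276 and 0.596 kb in ASC, against 2.99 and 2.99 kb in FISC, the largest fall (adjusted p = 0.00183, limma). Cuedc1 with 1.55 and 1.84 kb in ASC, against 3.47 and 3.6 kb in FISC and Chrdl2 with 0.551 and 0.297 kb in ASC, against 1.46 and 2.47 kb in FISC fell at the start as well (adjusted p = 0.00286 for Cuedc1 and 0.0297 for Chrdl2, limma). At Clmn the cluster lost most of its coverage while the window rose to 2.77 and 2.71 kb in ASC, against 1.11 and 1.83 kb in FISC (adjusted p = 0.0224, limma), a call that was lost after division by list length (adjusted p = 0.358, limma). At Tgfbr3 the window had 1.26 and 1.77 kb in ASC, against 2.05 and 2.11 kb in FISC and at Pax7 2.83 and 2.84 kb in ASC, against 3.26 and 3.08 kb in FISC, and neither passed (adjusted p = 0.0886 for Tgfbr3 and 0.0848 for Pax7, limma). Divided by list length both windows were lower (adjusted p = 0.00193 for Tgfbr3 and 0.00338 for Pax7, limma). In the Pax7 window, 11.4 kb of the coverage summed over the 4 libraries lie in ranked regions, so it is not separate from the cluster. Hdac4, Stard13, Mbnl1 and Klf14 had no peak in the window of the chosen start in any library. Other annotated starts of 3 of these genes, inside the clusters, did carry peaks. Promoters there were covered over 300 bases in every library at Stard13 and Mbnl1. At Hdac4 the promoter had 300 and 300 bases in ASC, against 300 and 179 in FISC.

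**Figure D5:**
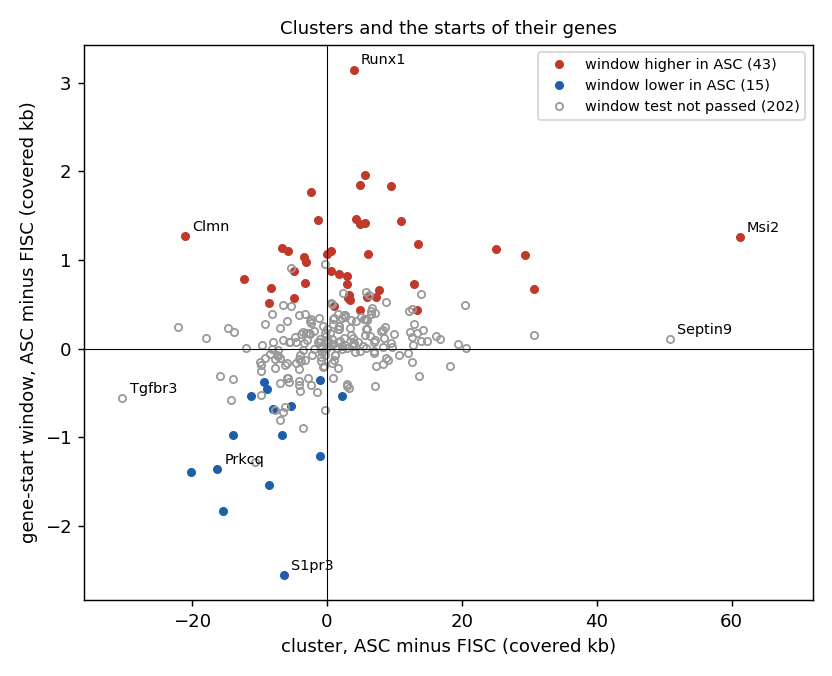
Difference in covered kb, ASC minus FISC, of the gene-start window (vertical) against that of the highest-ranked cluster of the same gene (horizontal) for 260 genes, coloured by the call of the window. Msi2 lies far to the right with a window called higher, Septin9 to the right with a window near 0, and Clmn to the left with a window called higher, though Msi2 and Clmn lose that call after division by list length.

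A cluster near Atg7 stands apart from the rest. Ranked 53 (chr6:114494222-114637100), it lies between Hrh1 and Atg7 with 0 protein-coding genes inside, and it is the only one of the 300 without a peak in either ASC library. In FISC it had 24.1 and 20.1 kb, from 61 and 56 narrow peaks of at most 1015 bases whose fold enrichment reached only 5.99 and 5.92. The peaks are strewn over 143 kb, and with 83 it has the most regions of any of the 300. On the X chromosome, the cluster ranked 44, 131 kb beyond Asmt, had 14.6 and 6.52 kb in ASC, against 16 and 29.8 kb in FISC, so that the FISC replicates lie further apart than the conditions' means. Leaving out these and the other cluster on X, near Zmat1, 53 were higher and 65 lower over 4 libraries.

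At the lower edge of the ranking the clusters differ little. The last 3 kept had FISC means of 9.36 kb at St3gal5, 9.3 kb at a further cluster of Aopep and 9.29 kb at Ncoa1. The first 3 left out had 9.28 kb at Cyb5r3, 9.23 kb at Clec2d and 9.22 kb at Tpcn1. Across the 300, spans ran from 11.4 to 196.5 kb with a median of 59.0 kb, and FISC coverage from 9.29 to 62.6 kb with a median of 13.1 kb. The FISC replicates lay within 20% of each other in 275 clusters, and ASC replicate 2 exceeded ASC replicate 1 in 293. Midpoints lay in the body of a protein-coding gene in 232 clusters and between genes in 68 (22.7%), where 44.6% of all clusters lay between genes.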

How the data were processed

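H3K27ac was profiled by ChIPmentation in 4 libraries of muscle stem cells (ASC and FISC, 2 each). Reads were processed on mm10 with MACS2, Picard, BWA and bcl2fastq 2.19, per the submitters' processing notes. Versions of the others, and any settings, were not given in the sources used here. Each library has 1 narrow peak list, as the authors deposited it. In it, per the deposited columns of MACS2, fold enrichment sets the summit against its local background. The authors' −log10 p and −log10 q values also refer to the summit. The score they deposited was checked to be 10 times the −log10 q without its decimals. Read depth is unknown, so no counting interval is given.

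Peaks were merged, filtered and stitched as the opening of the report says, with RefSeq genes of GRCm38.p6, the assembly of mm10 (21887 protein-coding genes). Gene-start windows span 2 kb on either side of the start, by strand for 17492 genes and otherwise at the end with more covered bases, which was the case for all but 208 of the 286 genes. Covered kb per cluster or window was fitted with limma 3.58.1 (R 4.3.3, eBayes with trend, linear, no scaling) over all clusters or windows covered in at least 2 libraries, with Benjamini-Hochberg adjustment and a threshold of 0.05. With 2 libraries against 2, an exact permutation test cannot go below 0.333. The scripts were tested on simulated data.

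The clusters, gene lists and tests were chosen with earlier results of these data known. Clusters named are the 20 highest ranked, the 10 with the largest called difference in each direction, the 3 on either side of the limit and up to 5 per list of satellite identity, quiescence, Notch and immediate early genes. Clusters of the 12 gene groups, microRNAs, noncoding RNAs, chromosome X and Atg7 beyond that were chosen after their values were seen.

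Alternatives were stricter peak thresholds, lists of equal covered length, other stitching and gene-end distances, division by list length, no filter, a replicate block, no trend and leaving out each library. Added after seeing the data were windows without bases shared with clusters, and clusters without those on X or without an ASC peak.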

Additional observations from a re-analysis of the deposited data

How the results depend on the processing

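Covered bases depend on how many peaks each list holds, and the ASC lists are longer. Shares over all clusters and gene starts are given above for the main fit, and for division by list length. For the other alternatives below they are not given. Those counts show how the calls move and say nothing particular to the 300. With kb divided by list length, 29 clusters were higher and 200 lower (53 and 67 as reported), and gene starts 5 higher and 188 lower (43 and 15). With lists of equal covered length, 31 clusters were higher and 177 lower, gene starts 23 higher and 26 lower, and the ASC minus FISC sum turned to -1.65 Mb (0.304 Mb as reported). That sum was -0.0871 Mb with stitching within 5 kb. Chosen on 1 FISC library, equal lengths gave 105 and 104 lower and 5 higher (FISC replicate 1 chose), a fold of at least 5 gave 18 and 16 higher, and stitching within 5 kb 1 higher (FISC replicate 1 chose). A fold of at least 5 left 12875 clusters. Ranking by span kept 168 of the 300, and a list of 150 holds 150 of them. Gene starts gave 16 higher and 3 lower with no filter, 4 lower in windows of 1 kb and 34 lower in windows of 5 kb. Leaving out 1 library moved the clusters between 3 and 129 higher and between 46 and 117 lower, gene starts between 19 and 48 higher and between 6 and 17 lower, and the sum between -0.252 (without ASC replicate 2) and 0.859 Mb (without ASC replicate 1). The highest and lowest cluster counts came without ASC replicate 1 (129 higher) and without either FISC library (3 higher). Single clusters that turned round were Nfix (-17.3 kb divided by list length, -19.2 kb at equal lengths), Klf14 (-9.01 and -2.63 kb), Spsb1 (-13.0 and -7.50 kb), Col5a3 (-4.02 and -4.28 kb), Frmd8 (-12.1 kb divided), and, at equal lengths, Errfi1 (-8.46 kb), the Myc cluster ranked 95 (-3.47 kb) and St3gal5 (-4.94 kb). Col5a1 turned to 3.35 kb at a fold of at least 5, and Ppara ranged from -5.72 to 3.36 kb when 1 library was left out. Over 50 named clusters and 798 values, 671 kept direction and call, 39 lost the call, 74 gained one and 14 turned round. A replicate block gave 54 higher and 64 lower clusters and 45 higher and 17 lower gene starts. Same-numbered libraries deviated with a correlation of 0.0244 over clusters and -0.00521 over windows. With 2 libraries per condition, these values cannot tell whether same-numbered libraries share more than a number. The held-out comparison could not be fitted without an ASC library, which leaves no residual degrees of freedom. The causes of these changes were not tested beyond what each alternative changes by construction.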
